A study of Mus musculus with 23 samples.

Results

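The genes described here encode the Toll-like receptors of the cell surface and the proteins that work beside them: the receptors Tlr1, Tlr2, Tlr4, Tlr5 and Tlr6, the co-receptors Cd14 and Ly96, and the receptor pair Cd180 and Ly86. They were chosen by symbol, with no threshold on measured values, and all 9 were found among the 47729 genes of the count table. All 9 also passed the filter on low counts that left 19597 genes for testing.

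Expression was measured by RNA sequencing in splenic dendritic cells of BALB/c mice, an inbred wild type strain, which were sorted on the surface proteins CD8 and CD172, the product of Sirpa. DC1a cells were sorted as CD8hi CD172-, DC1b cells as CD8Int CD172+, DC2 cells as CD8lo CD172hi and DC3 cells as CD8- CD172lo. Mice were either untreated or treated with TLI, which the labels do not spell out and which commonly stands for total lymphoid irradiation. Each library came from a numbered pool of mice, with 2 pools of untreated mice for each population and 4 pools of TLI mice, except that DC2 cells of TLI mice are represented by pools 1, 3 and 4. The labels give no age. Batch number 1 covers all untreated libraries and the first 2 TLI pools, and batch number 2 covers TLI pools 3 and 4, so untreated mice were measured in batch 1 alone. Libraries that share a pool number may be sorts of the same mice, which the labels do not state and which entered as a block in an alternative fit alone, and the study's methods call the replicates of DC1a, DC1b and DC2 biological without saying how the numbered pools relate to them.

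Toll-like receptors recognise conserved parts of microbes. TLR2 forms pairs with TLR1 or TLR6 and binds bacterial lipopeptides, TLR5 binds flagellin, and TLR4 responds to lipopolysaccharide when it is bound to MD-2, the product of Ly96, with CD14 delivering the ligand. RP105, the product of Cd180, resembles TLR4 on its outer face but lacks the inner signalling domain, and it needs MD-1, the product of Ly86, to reach the surface. In myeloid cells RP105 with MD-1 is known as a brake on TLR4, and on B cells it promotes activation. Conventional dendritic cells use these receptors to sense bacteria before they present antigen.

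The deposited values are estimated counts per gene, and levels are given here as CPM, the counts scaled to a common library total. Library totals lay between 19256447 and 36997890, so that 3 counts, taken as the floor of detection, corresponded to 0.0811 to 0.156 CPM. Amplified reads are not independent molecules, and these floors cover counting error only. Fewer cells of a type and less RNA per cell cannot be told apart in sorted bulk samples. Some libraries went against their sort labels. Sirpa, which the DC1b and DC2 gates select for, reached only 5.1 and 6.55 CPM in DC1b of TLI pools 3 and 4 and 9.22 CPM in DC2 of TLI pool 3, against 13.7 to 309 CPM in the other DC1b and DC2 libraries. Cd8a was at 0.327 CPM in DC1b of TLI pool 4. Untreated DC1b cells carried the plasmacytoid markers Siglech, Ccr9, Tcf4 and Bst2 at a summed 2666 to 2830 CPM, compared with at most 165 CPM in every other group. Calls that involve the 3 libraries of low Sirpa are given with and without them. The untreated DC1b libraries were left out one at a time and not together, since they are the whole group.

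Per kilobase of exon Ly86 had the highest mean of the 9 genes in all 8 groups, from 94.3 CPM per kb in DC1a cells of TLI mice to 344.9 CPM per kb in untreated DC1b cells. The co-receptor genes lay at 26.4 to 178.4 (Ly96) and 24.9 to 170.6 CPM per kb (Cd14). Cd180 reached 92.9 CPM per kb in untreated DC2 cells, where it was above both, and lay at or below 27.7 in the other groups. Among the receptors proper Tlr1 and Tlr2 reached 29.8 and 23.7 CPM per kb at most, both in DC2 cells, while Tlr4 stayed at or below 2.27 and Tlr5 at or below 2.29. The spread between libraries of a group was wide for Cd14, Ly96 and all 5 receptors, and narrow for Cd180 and Ly86, as the plot of levels by library shows.

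**Figure D1:**
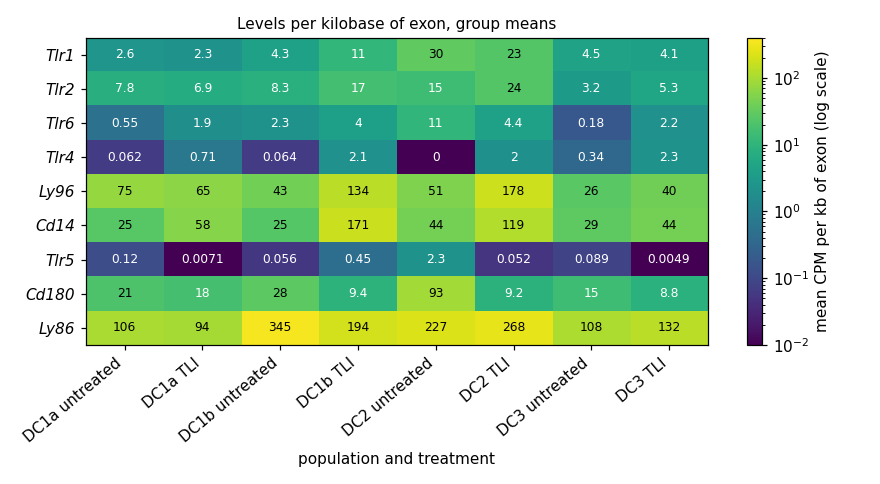
Mean level of each gene per kilobase of annotated exon, in CPM per kb, for each population (columns) in untreated and TLI mice, on a logarithmic colour scale. Ly86 is the brightest row in all 8 groups, and Cd180 is second to it in untreated DC2 cells at 92.9.

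**Figure D2:**
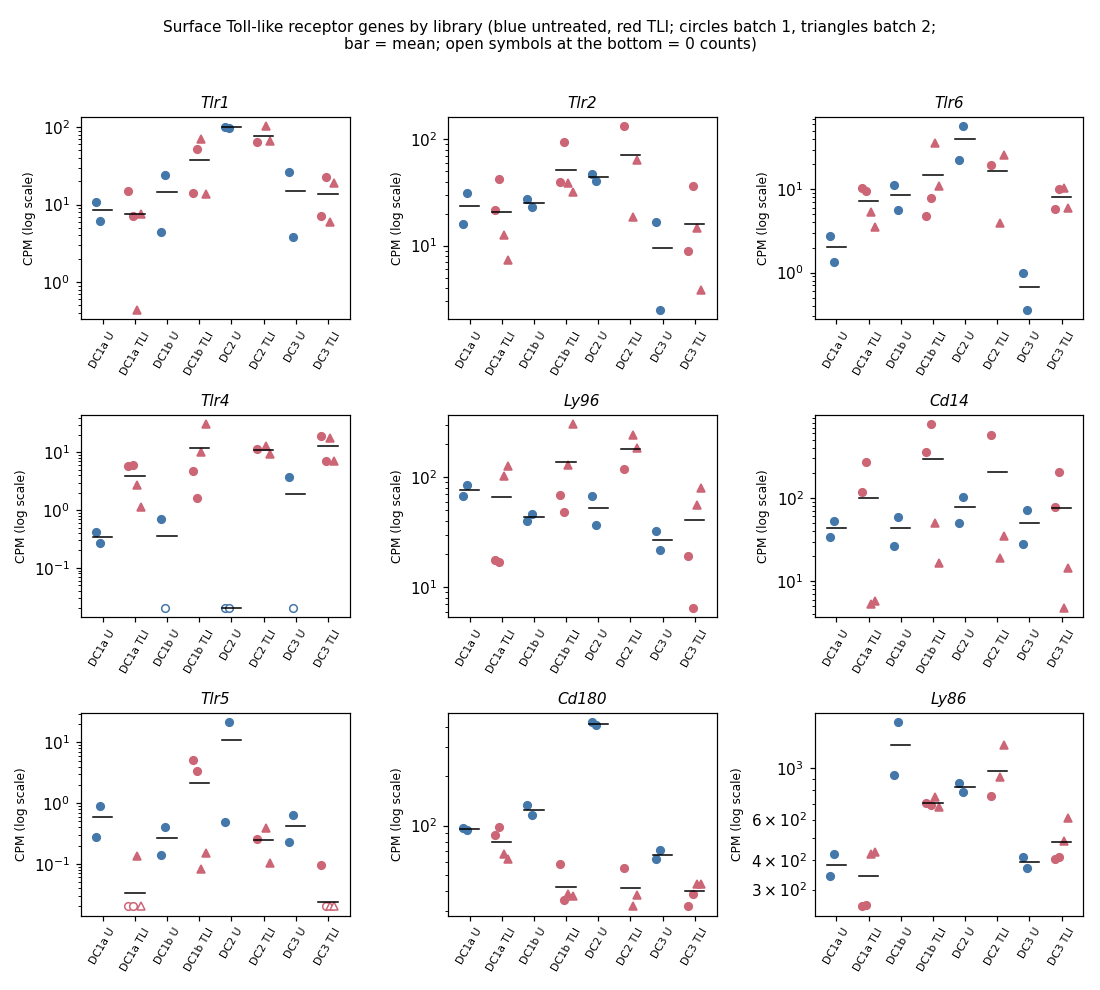
Level of each gene in the 23 libraries, in CPM on a logarithmic axis that differs between panels, by population for untreated (U, blue) and TLI mice (red), with circles for batch 1, triangles for batch 2, a bar for the group mean and open symbols at the bottom edge for 0 counts. Cd180 stands apart in the untreated DC2 libraries at 426 and 412 CPM, Tlr4 is higher in every TLI library than in the untreated libraries of its population, and Cd14 and Ly96 separate the TLI circles from the triangles.

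For differences between populations a single edgeR quasi-likelihood fit took in the 23 libraries, with adjustment over all genes tested, and a gene was called at an adjusted p under 0.05. In untreated mice 1 of the 9 genes was called between DC1b and DC1a cells, where 0.837% of all genes tested were called, and 1 between DC2 and DC1a cells, where 1.91% were. The count was 1 between DC2 and DC1b cells against 0.398% of all genes, 1 between DC3 and DC1b cells against 0.393%, and 2 between DC3 and DC2 cells against 0.837%. Between DC3 and DC1a cells, with 0.184% of all genes called, edgeR called 0 members, 2 had an unadjusted p under 0.05, and DESeq2 called 0. These 6 calls concerned Cd180, Ly86 and Tlr6.

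In TLI mice 2 of the 9 were called between DC1b and DC1a cells (1.42% of all genes), 2 between DC2 and DC1a cells (3.4%), and 1 each between DC3 and DC1a (0.75%), DC3 and DC1b (1.11%) and DC3 and DC2 cells (1.37%). Between DC2 and DC1b cells, with 0.214% of all genes called, edgeR called 0 members, none had an unadjusted p under 0.05, and DESeq2 called 0. These 7 calls concerned Cd180, Ly86 and Ly96. When the contrast of 2 populations was averaged over untreated and TLI mice, 5 of the 9 were called lower in DC3 than in DC2 cells (3.33% of all genes) and 3 were called higher in DC2 than in DC1a cells (7.01%). The averaged contrast gave 1 call between DC1b and DC1a cells (2.89%), 1 between DC3 and DC1a (1.4%) and 1 between DC3 and DC1b (1.33%). Between DC2 and DC1b cells the averaged contrast gave 0 calls in edgeR (0.75% of all genes), with 3 at an unadjusted p under 0.05 and 1 in DESeq2.

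**Figure D3:**
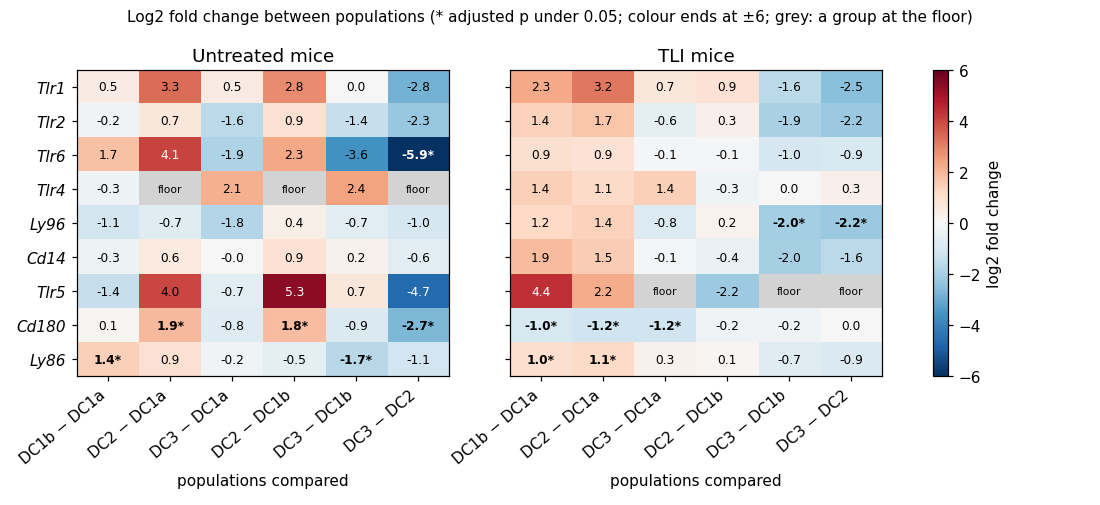
Fitted log2 fold change of each gene (rows) for the 6 pairs of populations (columns, the first named minus the second) in untreated and in TLI mice, with an asterisk where the adjusted p was under 0.05 and grey where a group was at the floor in all its libraries. The asterisks lie in the rows of Cd180, Ly86, Tlr6 and Ly96.

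The receptors of lipopeptides, Tlr1, Tlr2 and Tlr6, were highest in DC2 cells on average in untreated mice. Tlr1 and Tlr6 lie next to each other on chromosome 5, both on the minus strand, at chr5:64924679-64933563 and chr5:64952031-64960097 (GRCm38). They share stretches of sequence: 9.14% of the 76-base words in Tlr6 exons and 10.5% of those in Tlr1 exons occur in other genes as well, mostly in the partner of the pair. Reads from these stretches could be counted for either, which leaves the split between the 2 genes uncertain. Both windows below run from 250 bases before an annotated start site to 50 after it, from RefSeq on GRCm38.p6, and are shown since the neighbours were compared throughout. Capitals mark, in Tlr1, the motif GAGGAAG bound by PU.1, a factor of myeloid cells, and in Tlr6 a pair of overlapping matches to the interferon response motif (GAAA, 2 free bases, GAAA) followed by the C/EBP motif (TTGC, 2 free bases, AA), all searched on both strands.
Tlr1, chr5:64933509-64933808, minus strand: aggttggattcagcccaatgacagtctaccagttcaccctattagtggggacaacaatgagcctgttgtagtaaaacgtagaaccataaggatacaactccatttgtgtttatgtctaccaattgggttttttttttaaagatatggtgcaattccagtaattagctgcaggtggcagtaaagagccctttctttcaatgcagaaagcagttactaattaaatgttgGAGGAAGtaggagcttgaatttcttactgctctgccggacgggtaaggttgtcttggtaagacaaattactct
Tlr6, chr5:64959117-64959416, minus strand: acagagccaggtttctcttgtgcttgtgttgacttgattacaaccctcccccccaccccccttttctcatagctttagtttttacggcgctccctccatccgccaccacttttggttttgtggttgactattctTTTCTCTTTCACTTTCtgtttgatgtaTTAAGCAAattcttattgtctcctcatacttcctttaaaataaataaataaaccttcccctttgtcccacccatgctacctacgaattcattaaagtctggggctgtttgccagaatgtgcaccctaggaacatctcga
The PU.1 letters occur in 13.6% of all 32851 promoter windows, the interferon letters in 3.44% and the C/EBP letters in 10.8%. The other annotated window of each gene held none of the 5 motifs searched.

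Tlr1 stood at 101 and 98.3 CPM in the 2 untreated DC2 libraries and at 64.6, 102 and 65.5 CPM in those of TLI mice. In DC1a cells it lay at 10.9 and 6.17 CPM in untreated mice and at 15.1, 7.17, 0.432 and 7.52 CPM in TLI mice. No DC2 library overlapped with a DC1a library. How many of all genes show such an order between populations was not counted, here or for the genes below. Averaged over untreated and TLI mice Tlr1 was higher in DC2 than in DC1a cells by 3.26 ± 0.84 on the log2 scale (SE, adjusted p = 0.0247 by edgeR). Within untreated mice alone the difference was 3.33 (95% interval 0.59 to 6.08, adjusted p = 0.268), and within TLI mice 3.18 (1.12 to 5.25, adjusted p = 0.0901). With the pool as a block the averaged difference of Tlr1 was 3.27 with an adjusted p of 0.052, and in batch 1 alone it was 2.81 with an adjusted p of 0.116. The call was also lost without any one of the untreated DC1a libraries (3.49 and 3.08, adjusted p of 0.147 and 0.179) or untreated DC2 libraries (3.23 and 3.28, adjusted p of 0.0588 and 0.0596). Without the libraries of low Sirpa it was 3.14 (adjusted p = 0.0384). In DC1b cells Tlr1 spread from 4.47 and 24.4 CPM in untreated mice to 14.2, 52.5, 70.1 and 13.5 CPM in TLI mice, and in DC3 cells from 3.84 to 26.2 CPM over both treatments.

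Tlr6 was highest in the untreated DC2 cells as well, at 22.4 and 56.9 CPM, and lowest in the untreated DC3 cells, at 1 and 0.353 CPM. It was lower in untreated DC3 than in untreated DC2 cells by a log2 fold change of -5.92 ± 1.21 (adjusted p = 0.0244 by edgeR), with an adjusted p of 0.0539 when the pool was a block. Without either untreated DC3 library, or without untreated DC2 pool 2, the call was lost, at adjusted p of 0.15, 0.308 and 0.122, as it was with untreated mice fitted alone (-5.89, adjusted p = 0.064). After TLI the 2 populations lay closer together, and Tlr6 read 19.5, 3.98 and 25.6 CPM in DC2 cells and 5.83, 10.2, 10.3 and 5.89 CPM in DC3 cells. The fitted difference between TLI DC3 and DC2 cells was -0.94 (95% interval -2.50 to 0.63, adjusted p = 0.637). The TLI difference in this pair of populations was 4.99 ± 1.33 on the log2 scale and did not pass the adjustment over all genes (adjusted p = 0.464). Averaged over treatments Tlr6 was higher in DC2 than in DC1a cells by 2.46 ± 0.65 (adjusted p = 0.0298) and lower in DC3 than in DC2 cells by a log2 fold change of -3.43 ± 0.69 (adjusted p = 0.00847). The first of these was lost without the low-count filter (adjusted p = 0.0915), in batch 1 alone (0.0791) and without any one of untreated DC1a pools 1 and 2, untreated DC2 pool 2, TLI DC1a pools 3 and 4 or TLI DC2 pools 1 and 4, at values from 2.06 to 2.75 and adjusted p from 0.0558 to 0.207. The second was lost without untreated DC3 pool 1 (-3.86, adjusted p = 0.0552) or pool 2 (-3.16, adjusted p = 0.112). Without the libraries of low Sirpa the 2 values of Tlr6 were 2.75 (adjusted p = 0.00448) and -3.68 (adjusted p = 0.00135).

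Tlr2, at chr3:83836272-83841767 on the minus strand, encodes the common partner of the other lipopeptide receptors. Its promoter window held 2 matches to the NF-kB motif (GGGA, 4 free bases, CC), in capitals here, starting 172 and 8 bases before the start site, and it is shown as the one with the most NF-kB matches among the windows searched. These were 9 windows of 6 members, namely Tlr1, Tlr2, Tlr5, Tlr6, Cd180 and Ly86, with 2 windows each for Tlr1, Tlr6 and Cd180.
Tlr2, chr3:83841559-83841858, minus strand: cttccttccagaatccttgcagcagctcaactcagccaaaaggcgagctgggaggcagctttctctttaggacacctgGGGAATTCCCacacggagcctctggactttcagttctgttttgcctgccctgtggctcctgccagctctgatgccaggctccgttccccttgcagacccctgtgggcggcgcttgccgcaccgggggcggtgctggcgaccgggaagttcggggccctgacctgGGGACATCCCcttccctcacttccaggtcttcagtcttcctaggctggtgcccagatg
Those letters occur in 20.7% of all windows, and in 2 of these 9 windows, the other being that of Tlr5. Tlr2 read 47.3 and 40.8 CPM in untreated DC2 cells and 132, 18.5 and 63.2 CPM in those of TLI mice. In DC3 cells it read 16.7 and 2.47 CPM in untreated mice and 8.81, 36.7, 14.6 and 3.84 CPM in TLI mice, so that only the TLI libraries of the 2 populations overlapped. Averaged over treatments Tlr2 was lower in DC3 than in DC2 cells by a log2 fold change of -2.27 ± 0.55 (adjusted p = 0.0283 by edgeR), with an adjusted p of 0.13 in batch 1 alone and 0.127 without the batch term. The call was also lost without TLI DC2 pool 1 or 4 (adjusted p of 0.0518 and 0.0566), untreated DC2 pool 1 or 2 (0.0857 and 0.0661) or untreated DC3 pool 2 (0.174), at values from -1.87 to -2.33, and without the libraries of low Sirpa it was -2.45 (adjusted p = 0.0257). The DC1b libraries read 27.3 and 23 CPM in untreated mice and 39.8, 95, 38.6 and 31.9 CPM in TLI mice, and DC1a libraries 7.39 to 42 CPM.

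The Tlr1 to Tlr6 ratio, from CPM per kb, ran from 0.09 in DC1a of TLI pool 3 to 29.1 in DC3 of untreated pool 1. Within DC1a cells of TLI mice alone it ran from 0.09 to 2.41. Over the 23 libraries log2 CPM of Tlr2 correlated with that of Tlr6 at r = 0.621 and with that of Tlr1 at 0.502, and once group and batch means were taken out at 0.578 and 0.115. These are descriptions over libraries that share pools and groups. The 2 genes whose log2 CPM ran most like Tlr2, among the 10147 genes whose mean reached 5 CPM, were Lcp2 (r = 0.827), an adaptor of immune receptor signalling, and Adgre1 (r = 0.806), which encodes the macrophage protein F4/80 and stands in the monocyte marker list used here. Those most like Tlr1 were Ddx60 (0.833) and Trps1 (0.812), and those most like Tlr6 were Cxcr4 (0.817) and Tada1 (0.808).

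Tlr5, the flagellin receptor gene at chr1:182954788-182976044 on the plus strand, was near the floor in most libraries. It stood out at 21.4 CPM, from 413 counts, in untreated DC2 pool 2, while the other untreated DC2 library held 12 counts, or 0.488 CPM. DC1b cells of TLI pools 1 and 2 read 5.11 and 3.34 CPM, and those of pools 3 and 4 read 0.0831 and 0.149 CPM. All other libraries lay at or below 0.887 CPM, and in 6 of the 8 TLI libraries of DC1a and DC3 cells no count was seen. The TLI libraries lay below both untreated ones in DC1a, DC2 and DC3 cells, an order seen in 9.26%, 14.6% and 11.2% of all genes tested there. No comparison called Tlr5. The genes most like it were Tnfaip2 (r = 0.715) and Ttn (0.695).

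Tlr4, at chr4:66827584-66930284 on the plus strand, encodes the lipopolysaccharide receptor and was nearly absent from the untreated cells. It had 12 and 7 counts in the untreated DC1a libraries, or 0.418 and 0.27 CPM, 15 and 0 counts in DC1b cells, 0 and 0 in DC2 cells, and 83 and 0 in DC3 cells. By counting error alone, a count of 0 at these depths allows a level of up to 0.156 CPM. The pairs of 83 and 0 and of 15 and 0 counts show that libraries of a population differed by more than that. In TLI mice it read 5.73, 6.14, 2.76 and 1.14 CPM in DC1a cells and 4.72, 1.61, 10.2 and 30.4 CPM in DC1b cells. In DC2 cells it read 11.4, 12.7 and 9.27 CPM, with a mean 80.1 times the floor of 3 counts per library in untreated mice. That floor leaves out the spread between amplified libraries, so the ratio is not a lower bound of the difference. The DC3 cells of TLI mice read 19, 7.02, 17.5 and 6.98 CPM. Every TLI library thus lay above every untreated library of its population, in both batches. This held in all 4 populations for 8 of the 19597 genes tested, or 0.0408%, and in single populations for 4.36% (DC1a), 5.12% (DC1b), 10.6% (DC2) and 3.27% (DC3) of them.

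The mean of the 4 TLI differences of Tlr4 passed the adjustment over all genes (adjusted p = 0.0178 by edgeR, higher in TLI mice in 4 of 4 populations), whereas none of the 4 alone did (adjusted p of 0.554, 0.334, 0.228 and 0.584 for DC1a, DC1b, DC2 and DC3). No fitted size is given, because it would follow from the libraries without a count. With batch 1 libraries alone the adjusted p was 0.0875, and without any one of the untreated DC1a or DC2 libraries it lay between 0.0675 and 0.108. Leaving out the 3 libraries with low Sirpa gave 0.0259. Batch 2 and batch 1 differed by 0.17 ± 1.03 on the log2 scale (adjusted p = 0.933). Neutrophil markers, 10 genes with S100a8 and Elane among them, were also higher in TLI than in untreated libraries of every population. They summed to at most 0.0697 CPM in untreated DC1a cells, with 9 of 10 at 0, and to 6.41 to 9.97 CPM after TLI, with 3 at 0. In DC1b cells the sums were 0.839 to 23 CPM and then 1478 to 21726 CPM, in DC2 cells 1.87 to 37.3 and then 119 to 2343 CPM, and in DC3 cells at most 0.235 and then 3.93 to 89 CPM. The 4 erythroid markers summed to 76.2 to 885 CPM in untreated DC1a cells and 88.7 to 70516 CPM after TLI, to 43 to 63.2 and then 1206 to 38958 CPM in DC1b, to 43.5 to 1393 and then 937 to 30006 CPM in DC2 and to 34.3 to 90.7 and then 221 to 82992 CPM in DC3 cells. The 6 T cell markers summed to 1.27 to 2.37 CPM, with 3 at 0, and then 4.16 to 125 CPM in DC1a cells, and the 5 NK cell markers there to 0.116 to 0.279 CPM and then 3.59 to 265 CPM, while in the other populations the T cell and NK cell sums of TLI and untreated libraries overlapped. The 10 monocyte and macrophage markers summed to 3637 to 5756 CPM in untreated DC1b cells and 7783 to 24457 CPM after TLI. In DC2 cells these sums were 5281 to 5643 and then 5993 to 12276 CPM, and in DC1a and DC3 cells the groups overlapped. The 10 B cell markers summed to 53.2 to 869 CPM in untreated DC2 cells and 1030 to 13045 CPM after TLI. In the other populations their TLI and untreated sums overlapped. The part of any of these cells in the Tlr4 counts was not tested.

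Ly96, at chr1:16688051-16709611 on the plus strand, encodes MD-2, without which TLR4 does not respond to lipopolysaccharide. It was present in all libraries, also where Tlr4 was at 0. Untreated cells held 67.6 and 84.7 CPM in DC1a, 40.4 and 46.4 in DC1b, 67.1 and 37 in DC2 and 32.2 and 21.7 in DC3. In TLI mice the libraries split by batch. DC1a cells read 17.7 and 17.1 CPM in pools 1 and 2 and 102 and 127 CPM in pools 3 and 4, DC1b cells 68.4 and 48.2 and then 129 and 302, and DC3 cells 19.3 and 6.46 and then 55.8 and 80.7. The DC2 cells read 120 CPM in pool 1 and 244 and 183 CPM in pools 3 and 4. In each population the batch 2 libraries were higher than all those of batch 1, untreated included.

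The difference of Ly96 between batch 2 and batch 1 of TLI mice was 2.06 ± 0.32 on the log2 scale (adjusted p = 0.000312 by edgeR). The TLI difference of Ly96 was read beside this batch term and was called in none of the populations, at adjusted p of 0.383 in DC1a, 0.658 in DC1b, 0.844 in DC2 and 0.645 in DC3. Among TLI mice Ly96 was lower in DC3 than in DC1b cells by a log2 fold change of -2.04 ± 0.43 (adjusted p = 0.0257) and lower in DC3 than in DC2 cells by -2.24 ± 0.45 (adjusted p = 0.0161). Without the DC1b and DC2 libraries of low Sirpa the first of these gave -2.19 with an adjusted p of 0.139 and the second -2.42 with 0.0312, and in batch 1 alone both lost their call (adjusted p of 0.381 and 0.18), as they did without the batch term (0.369 and 0.325) and with TLI mice fitted alone (0.0654 and 0.0505). Without any one of TLI DC1b pools 1 and 4 or TLI DC3 pools 2 and 3 the first was -1.76 to -1.97, with adjusted p of 0.0635 to 0.105. The second was -1.59 without TLI DC2 pool 1 (adjusted p = 0.151) and -2.17 without TLI DC3 pool 3 (0.0641). Averaged over treatments Ly96 was lower in DC3 than in DC2 cells by -1.63 ± 0.38 (adjusted p = 0.0229), a call lost without the batch term (0.313), in batch 1 alone (0.0637) and without TLI DC2 pool 1 (-1.29, adjusted p = 0.0786), untreated DC2 pool 1 (-1.37, 0.127) or untreated DC3 pool 1 or 2 (-1.77 and -1.52, 0.0958 and 0.165), and without the libraries of low Sirpa it was -1.72 (0.0258). The genes most like Ly96 were Hipk3 (r = 0.893), a kinase gene, and Anapc10 (0.886), a subunit of the anaphase-promoting complex. Ly96 and Tlr4 themselves correlated at 0.234 over the 23 libraries.

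Cd14, on chromosome 18, encodes the co-receptor that hands lipopolysaccharide to TLR4 and is a classical marker of monocytes. Untreated cells held 34.2 and 52.8 CPM in DC1a, 26.7 and 59.7 in DC1b, 50 and 104 in DC2 and 28.3 and 71.9 in DC3. In TLI pools 1 and 2 it was at 119 and 272 CPM in DC1a cells, 352 and 764 in DC1b, 563 in the single DC2 library and 78.8 and 207 in DC3. All of these were higher than the untreated libraries of their population. Cd14 read higher in pool 2 than in pool 1 in each population with both, in untreated as in TLI mice. In TLI pools 3 and 4 it was at 5.35 and 5.76 CPM in DC1a cells, 49.9 and 16.4 in DC1b, 18.8 and 34.8 in DC2 and 4.74 and 14.3 in DC3. Of these 8 libraries, 7 lay below both untreated libraries of their population and DC1b of pool 3 lay between them. The TLI groups therefore overlapped with the untreated ones in every population.

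Between batch 2 and batch 1 of TLI mice Cd14 differed by a log2 fold change of -4.33 ± 0.42 (adjusted p = 3.97e-06 by edgeR). Of the 9 members 4 were called in this comparison, Cd14 and Tlr2 lower and Ly96 and Ly86 higher in batch 2, where 17.4% of all genes were called. The differences of Tlr2 (-1.35 ± 0.43, adjusted p = 0.0394) and Ly86 (0.45 ± 0.14, adjusted p = 0.0404) each lost their call in 15 of 23 fits that left out 1 library, with adjusted p up to 0.122 for Tlr2 and 0.0909 for Ly86, whereas those of Cd14 and Ly96 kept theirs, also without the libraries of low Sirpa (-4.37, adjusted p = 0.000174, and 2.21, adjusted p = 0.00259). Ly86 also lost its call with DESeq2's size factors (0.30, adjusted p = 0.163), in DESeq2's Wald test (0.13), without the low-count filter (0.0995) and with TLI mice fitted alone (0.0683). Tlr2 lost its call without the filter (0.0771) and without the libraries of low Sirpa (-1.38, adjusted p = 0.0984). The batch number comes with different pools of mice, and batch and pool cannot be told apart. With the batch term in the fit, the TLI difference of Cd14 is its difference in batch 1. It rose in DC1b cells by 4.11 ± 0.79 on the log2 scale (adjusted p = 0.0257), and averaged over the 4 populations by 2.69 ± 0.39 (adjusted p = 0.00228). In batch 1 libraries alone the averaged rise was 2.67 (adjusted p = 0.00875) and that of DC1b cells 3.96 (adjusted p = 0.101). Without the batch term neither passed, at 1.62 (adjusted p = 0.383) and 3.04 (adjusted p = 0.607). Without the libraries of low Sirpa the averaged value was 2.71 (adjusted p = 0.0057) and the DC1b value 3.96 with an adjusted p of 0.0621, without TLI DC1b pool 2 it was 3.90 (0.0632), and without untreated DC1b pool 1 or 2 it was 3.63 (0.332) or 4.86 (0.143).

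Between populations of TLI mice Cd14 was not called, at 1.92 (adjusted p = 0.092) for DC1b against DC1a and -2.00 (adjusted p = 0.0889) for DC3 against DC1b. With the pool as a block these values were 1.98 (adjusted p = 0.0359) and -2.09 (adjusted p = 0.0401).

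Markers of other myeloid cells were higher in every TLI DC1b library than in the untreated ones. Cd14 exceeded both untreated DC1b libraries in TLI pools 1 and 2 alone. The 10 monocyte and macrophage markers summed to 3637 to 5756 CPM in untreated DC1b cells, with Fcgr1 and Vcan at 0 in both libraries, and to 7783 to 24457 CPM in those of TLI mice, with none at 0 throughout. The neutrophil sums were higher after TLI as well, as given for Tlr4, with Retnlg at 0 in untreated DC1b cells and none of the 10 at 0 after TLI. Other marker sums of DC1b cells were lower in every TLI library. The 4 plasmacytoid markers summed to 2666 to 2830 CPM in untreated mice and 25.1 to 127 CPM after TLI. The 6 cDC1 markers summed to 1575 to 1776 and then 670 to 1156 CPM, and the 6 cDC2 markers to 290 to 314 and then 43.5 to 110 CPM. The part of any of these differences in the rise of Cd14 was not tested. Over the 23 libraries Cd14 and Tlr4 correlated at -0.0476, and at -0.538 once group and batch means were taken out. The genes most like Cd14 were the pseudogene Atp6v0c-ps2 (r = 0.841) and Gm5637 (0.84).

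**Figure D4:**
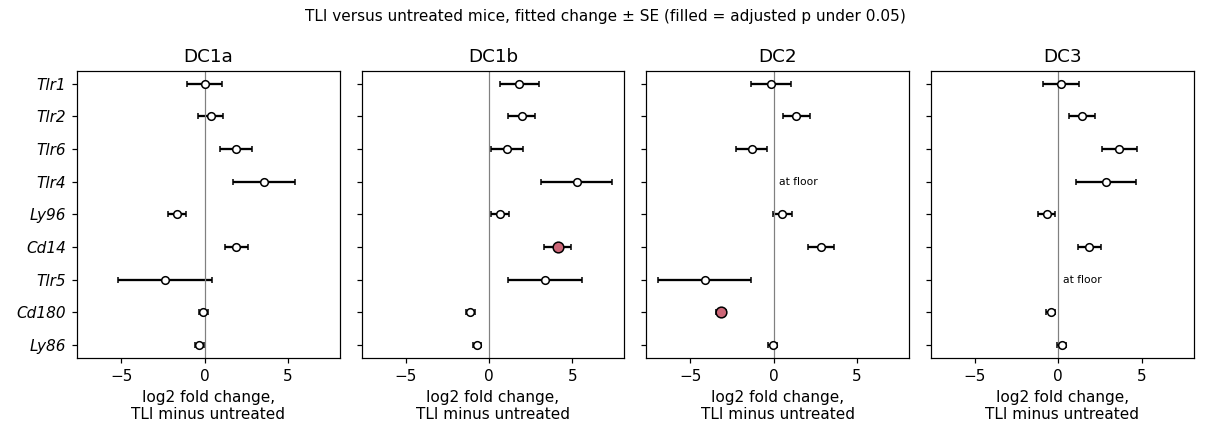
Fitted log2 fold change of TLI against untreated mice, with its standard error as a bar, for each gene (rows) in each population (panels), filled where the adjusted p was under 0.05 and not drawn where a group was at the floor. The filled points are Cd14 in DC1b cells at 4.11 and Cd180 in DC2 cells at -3.18.

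Cd180, at chr13:102693558-102739629 on the plus strand, encodes RP105. In untreated mice it was highest in DC2 cells. It stood at 426 and 412 CPM in the untreated DC2 libraries, against 96.1 and 94.7 in DC1a, 134 and 116 in DC1b and 62.4 and 70.9 in DC3. The 2 DC2 libraries lay far above all 6 others, which did not exceed 134 CPM. Cd180 was higher in untreated DC2 cells than in DC1a cells by 1.93 ± 0.32 on the log2 scale (adjusted p = 0.0035 by edgeR) and than in DC1b cells by 1.83 ± 0.32 (adjusted p = 0.0112). In DC3 cells it was lower than in DC2 cells by a log2 fold change of -2.70 ± 0.33 (adjusted p = 0.000348), a call that held in all 8 alternative fits and without any one of the 23 libraries. The first call was lost without the low-count filter (adjusted p = 0.119) and without either untreated DC1a library (0.0886 and 0.0805). The second was lost without the low-count filter (0.247), without the batch term (0.0715), in batch 1 alone (0.0553) and without any one of the untreated DC1b or DC2 libraries (0.0774 to 0.204).

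After TLI the order of the populations was different. Cd180 read 54.9, 32.2 and 37.8 CPM in DC2 cells, 58.1, 35.4, 38.3 and 37.4 in DC1b cells and 32.5, 38.3, 44.3 and 44.1 in DC3 cells, while DC1a cells kept 87.7, 97.9, 67.2 and 63 CPM. All DC1a libraries were above those of the other 3 populations. Among TLI mice Cd180 was lower than in DC1a cells by a log2 fold change of -0.97 ± 0.22 in DC1b (adjusted p = 0.0335), -1.19 ± 0.24 in DC2 (adjusted p = 0.00997) and -1.18 ± 0.22 in DC3 cells (adjusted p = 0.0134). These 3 calls were lost without the low-count filter (adjusted p of 0.318, 0.16 and 0.219), in batch 1 alone (0.525, 0.504 and 0.272) and with TLI mice fitted alone (0.141, 0.0515 and 0.0994), and those of DC1b and DC3 also without the batch term (0.125 and 0.0658). The DC1b call was lost in 17 of 23 fits that left out 1 library, all but those without TLI DC1b pool 1, TLI DC3 pools 1, 3 and 4 or TLI DC2 pools 3 and 4, with values from -0.71 to -1.02 and adjusted p up to 0.169. The DC2 call was lost without TLI DC2 pool 3 (-1.09, adjusted p = 0.0553) and the DC3 call without TLI DC3 pool 1 (-1.07, 0.0574) or 2 (-0.97, 0.0867). Without the libraries of low Sirpa the DC1b value was -0.91 (adjusted p = 0.303) and the DC2 value -1.08 (0.0567). Between DC1b, DC2 and DC3 cells of TLI mice the fitted differences of Cd180 were -0.22 (95% interval -0.73 to 0.28) for DC2 against DC1b, -0.21 (-0.68 to 0.25) for DC3 against DC1b and 0.01 (-0.49 to 0.51) for DC3 against DC2.

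Compared with untreated mice, Cd180 fell in DC2 cells of TLI mice, with a log2 fold change of -3.18 ± 0.30 (adjusted p = 5.45e-05 by edgeR). The 3 TLI libraries were all below both untreated ones, in batch 1 as in batch 2. The call held with the other scaling, without the low-count filter, without the batch term, with the pool number as a block and in DESeq2, and without any one library. The 6 cDC2 markers of these DC2 libraries were also lower after TLI, at a summed 194 to 402 CPM with 1 at 0, against 492 to 523 CPM, while neutrophil sums were 119 to 2343 against 1.87 to 37.3 CPM and erythroid sums 937 to 30006 against 43.5 to 1393 CPM. Their part in the fall of Cd180 was not tested. In batch 1 alone, with 1 TLI DC2 library, the value was -2.87 with an adjusted p of 0.104. In DC1b and DC3 cells the TLI libraries were also all below the untreated ones, at log2 fold changes of -1.12 ± 0.27 (adjusted p = 0.0872) and -0.47 ± 0.28 (adjusted p = 0.567). Groups with TLI entirely lower made up 15.7% of all genes in DC1b, 14.6% in DC2 and 11.2% in DC3 cells. In DC1a cells the groups overlapped, at -0.06 (95% interval -0.65 to 0.52). Without the libraries of low Sirpa the DC2 value was -3.10 (adjusted p = 0.00243). The mean over the 4 populations was -1.21 ± 0.16 (adjusted p = 0.0017), -1.18 in batch 1 alone (adjusted p = 0.0151) and -1.20 without the libraries of low Sirpa (adjusted p = 0.00514). Averaged over treatments Cd180 was lower in DC3 cells than in DC1a cells by -0.98 ± 0.19 (adjusted p = 0.013) and than in DC2 cells by -1.35 ± 0.20 (adjusted p = 0.000627), of which the second was -1.40 without the libraries of low Sirpa (adjusted p = 0.00153). The first was lost without the filter (0.17), without the batch term (0.0605), in batch 1 alone (0.0621) and without untreated DC1a pool 1 (0.0909) or 2 (0.0737) or untreated DC3 pool 1 (0.134) or 2 (0.0692).

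The size of the TLI difference depended on the population. It was larger in DC2 than in DC1a cells, by a log2 difference of -3.12 ± 0.40 (adjusted p = 0.00387 by edgeR), and smaller in DC3 than in DC2 cells, by 2.71 ± 0.40 (adjusted p = 0.0127). Of the 9 members Cd180 was the 1 called in each of these comparisons, where 0.0255% and 0.0357% of all genes were called. Against DC1b cells the difference of DC2 was -2.06 ± 0.40, with an adjusted p of 0.0562. In the other pairs edgeR called 0 members: between DC1b and DC1a cells (0.0357% of all genes) with 3 at an unadjusted p under 0.05 and 1 called by DESeq2, between DC2 and DC1b cells (0.122%) with 2 and 1, between DC3 and DC1b cells (0.0204%) with 3 and 0, and between DC3 and DC1a cells (0% of all genes) with 0 and 0. Both calls were lost in batch 1 alone (values of -2.84 and 2.12, the first with an adjusted p of 0.254) and without the low-count filter (0.103 and 0.179), and the second without the batch term (0.0657). The first was lost without either untreated DC1a library (0.127 and 0.135) and the second without either untreated DC3 library (0.149 and 0.156) or untreated DC2 pool 1 (0.0926), and without the libraries of low Sirpa (2.60, 0.0543), with which left out the first was -3.01 (0.0242).

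Cd180 overlaps Mast4, a kinase gene, on the opposite strand, and no source used here says that reads were counted by strand, so their reads could be mixed where they overlap. Of the 76-base words in Cd180 exons 2.45% also lie in Mast4. Mast4 itself read 99.3 and 97.8 CPM in untreated DC2 cells and 36.6, 14.1 and 14.7 CPM in those of TLI mice. In every population its TLI libraries lay below the untreated ones, and its mean TLI difference was a log2 fold change of -1.93 ± 0.44 (adjusted p = 0.0304), while in DC2 cells alone it was -2.23 ± 0.76 (adjusted p = 0.386). Between untreated DC2 and DC1a cells Mast4 differed by 0.62 ± 0.81 (adjusted p = 0.798). The part of Mast4 reads in the Cd180 counts was not tested. RP105 is abundant on B cells. In untreated mice the 10 B cell markers summed to 779 to 1475 CPM in DC1a and 2802 to 6109 CPM in DC1b cells. Their sums were 53.2 to 869 CPM in untreated DC2 and 20333 to 37300 CPM in untreated DC3 cells. After TLI they summed to 484 to 6325 CPM in DC1a and 5676 to 40892 CPM in DC1b cells. The TLI sums were 1030 to 13045 CPM in DC2 and 9356 to 54415 CPM in DC3 cells. The part of B cells in the Cd180 counts was not tested.

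Ly86, at chr13:37345208-37419036 on the plus strand of the same chromosome, encodes MD-1, the partner that RP105 requires. It read 937 and 1568 CPM in untreated DC1b cells and 864 and 788 in DC2, against 342 and 425 in DC1a and 416 and 373 in DC3. Both DC1b and DC2 libraries were above all those of DC1a and DC3. The 10 monocyte and macrophage markers showed the same order, at a summed 3637 to 5756 CPM in DC1b and 5281 to 5643 in DC2. They summed to 745 to 759 CPM in DC1a and 1879 to 2886 in DC3. The 6 cDC1 markers showed the reverse order, and the untreated DC1b libraries also carried plasmacytoid markers. What part other cells had in the Ly86 counts was not tested. Ly86 was higher in untreated DC1b than in DC1a cells by 1.43 ± 0.28 on the log2 scale (adjusted p = 0.0194 by edgeR) and lower in DC3 than in DC1b cells by a log2 fold change of -1.65 ± 0.28 (adjusted p = 0.0144). Without untreated DC1b pool 2 these values were 0.96 (adjusted p = 0.344) and -1.19 (adjusted p = 0.227), and both calls were also lost without either library of the other population (adjusted p between 0.114 and 0.346). The 2 calls were lost, too, without the batch term (0.164 and 0.135), in batch 1 alone (0.069 and 0.063) and with untreated mice fitted alone (0.0952 and 0.122).

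In TLI mice DC1b and DC2 cells were again above DC1a and DC3 cells, with DC2 now the highest on average. The monocyte and macrophage sums were again higher in DC1b (7783 to 24457 CPM) and DC2 cells (5993 to 12276 CPM). In DC1a and DC3 cells they were 442 to 1442 and 1434 to 3585 CPM, and the cDC1 sums again showed the reverse order. Their part in the Ly86 counts was not tested here either. Ly86 read 254, 258, 426 and 433 CPM in DC1a cells, 704, 690, 751 and 679 in DC1b, 756, 910 and 1251 in DC2 and 404, 414, 483 and 611 in DC3. It was higher than in DC1a cells by 1.00 ± 0.20 in DC1b (adjusted p = 0.0116) and by 1.14 ± 0.21 in DC2 cells (adjusted p = 0.00423). The first was lost without TLI DC1a pool 1 (0.94, adjusted p = 0.0602) or 2 (0.91, 0.0557), without the batch term (0.133) and in batch 1 alone (0.109), and the second in batch 1 alone (0.17). Without the libraries of low Sirpa they were 1.28 (adjusted p = 0.0206) and 1.23 (0.00695). Averaged over treatments the log2 differences of Ly86 were 1.21 ± 0.17 for DC1b against DC1a (adjusted p = 0.000451), 1.02 ± 0.17 for DC2 against DC1a (0.00137), -1.19 ± 0.17 for DC3 against DC1b (0.00108) and -0.99 ± 0.17 for DC3 against DC2 (0.003). Of these 4 averaged calls the last was lost in batch 1 alone (adjusted p = 0.0783), and no fit without 1 library, nor the fit without the libraries of low Sirpa, ended any of them. The TLI difference of Ly86 was called in no population, at -0.31 (95% interval -0.83 to 0.22) in DC1a, -0.73 (-1.24 to -0.22) in DC1b, -0.07 (-0.63 to 0.49) in DC2 and 0.20 (-0.33 to 0.72) in DC3 cells. The genes most like Ly86 were Tyrobp (r = 0.913), which encodes the signalling adaptor DAP12, and Plac8 (0.896).

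The promoter windows of the 2 partner genes are shown side by side because their levels did not run together. Neither held any of the 5 motifs searched, among them the ETS-IRF composite (GGAA, 2 free bases, GAAA), which occurs in 2.72% of all windows.
Cd180, chr13:102693308-102693607, plus strand: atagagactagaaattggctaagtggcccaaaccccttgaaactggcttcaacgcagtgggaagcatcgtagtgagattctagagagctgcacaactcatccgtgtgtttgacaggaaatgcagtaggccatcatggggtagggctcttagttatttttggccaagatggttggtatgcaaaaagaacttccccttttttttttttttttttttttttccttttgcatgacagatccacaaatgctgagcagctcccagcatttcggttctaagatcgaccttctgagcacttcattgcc
Ly86, chr13:37345095-37345394, plus strand: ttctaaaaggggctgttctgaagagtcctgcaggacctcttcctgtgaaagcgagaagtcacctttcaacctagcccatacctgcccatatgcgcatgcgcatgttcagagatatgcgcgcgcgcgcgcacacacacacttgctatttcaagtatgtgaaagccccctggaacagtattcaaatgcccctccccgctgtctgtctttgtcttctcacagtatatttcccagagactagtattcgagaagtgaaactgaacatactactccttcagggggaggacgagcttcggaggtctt
Log2 CPM of the genes correlated at -0.00192 over the 23 libraries. The Ly86 to Cd180 ratio, from CPM per kb, was lowest in untreated DC2 cells, at 2.52 and 2.37. On average it was highest in DC2 cells of TLI mice, at 17.1, 35.1 and 41.1. The 17.1 of pool 1 lay below 24.2, 24.4 and 22.5 in TLI DC1b cells and 17.2 in TLI DC3 cells. In DC1a cells the ratio was 4.41 and 5.57 in untreated mice and 3.59, 3.27, 7.86 and 8.53 in TLI mice. In DC1b cells it was 8.68 and 16.8, then 15, 24.2, 24.4 and 22.5, and in DC3 cells 8.27 and 6.53, then 15.4, 13.4, 13.5 and 17.2. The ratios of TLI and untreated mice overlapped in DC1a and DC1b cells and not in DC2 and DC3 cells. The genes most like Cd180 were Gm2396 (r = 0.803) and Dpp4 (0.772), which encodes the surface peptidase CD26.

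**Figure D5:**
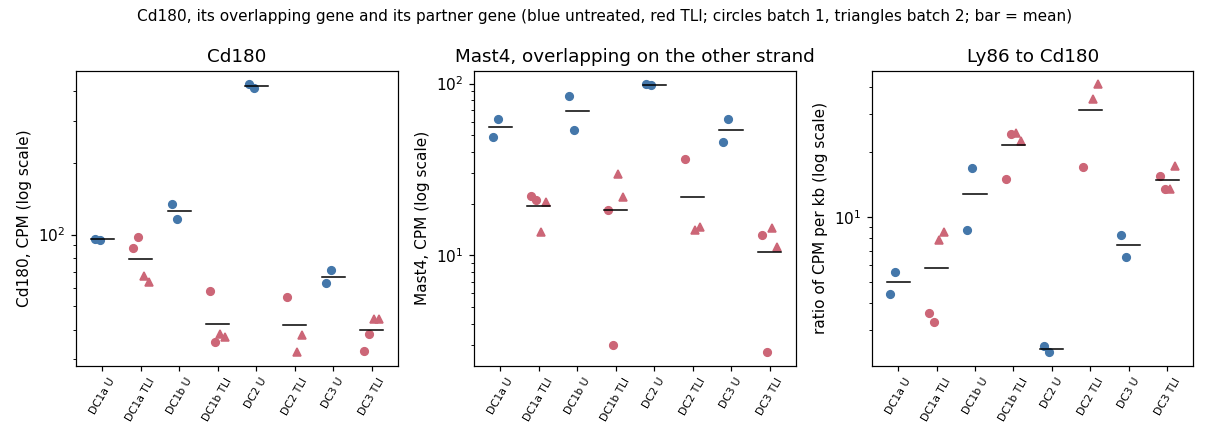
Levels of Cd180 and of Mast4 in CPM and the ratio of Ly86 to Cd180 in CPM per kb, by library on logarithmic axes, for untreated (U, blue) and TLI mice (red), with circles for batch 1, triangles for batch 2 and a bar for the mean. Cd180 is highest in untreated DC2 cells, where the ratio is lowest at 2.52 and 2.37, and Mast4 lies lower in every TLI group.

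Across the 4 populations, TLI against untreated mice gave 1 call among the 9 members in DC1b cells (0.413% of all genes) and 1 in DC2 cells (0.0612%), which are those of Cd14 and Cd180. In DC1a cells (0.0102% of all genes) edgeR called 0 members, with 2 at an unadjusted p under 0.05 and 0 called by DESeq2, and in DC3 cells (0.0255%) it called 0, with 2 at an unadjusted p under 0.05 and 1 called by DESeq2. The mean over the populations gave 3 calls (2.44% of all genes), those of Tlr4, Cd14 and Cd180. For the remaining members the averaged TLI difference was 0.46 (95% interval -0.87 to 1.79) for Tlr1, 1.28 (0.37 to 2.19) for Tlr2, 1.33 (0.24 to 2.42) for Tlr6, -1.65 (-4.78 to 1.48) for Tlr5, -0.29 (-0.94 to 0.36) for Ly96 and -0.23 (-0.53 to 0.07) for Ly86.

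Genes that work beside or downstream of these receptors were taken from a list of 32: helpers such as Lbp, chaperones such as Unc93b1, adaptors such as Myd88 and Tirap, the kinases and ligases from Irak4 to Ikbkb, and restraining genes such as Irak3 and Tollip. All 32 were tested, and edgeR's calls over all genes made up 0.76% of tests in the untreated pairs and 1.38% in the TLI pairs. DESeq2's Wald test made 7 calls in the list over the untreated pairs and 18 over the TLI pairs, where edgeR made 1 and 4. DESeq2 also called several times more of all genes than edgeR did, as its counts in the closing section show. Its larger counts are therefore not read as a result about the list. In untreated mice 1 was called over the 6 pairs of populations, Hsp90b1, the chaperone that folds Toll-like receptors, which was higher in DC3 than in DC2 cells by 1.62 ± 0.33 on the log2 scale (adjusted p = 0.0244 by edgeR). In TLI mice Ikbkb, a kinase that activates NF-kB, was higher than in DC1a cells in DC1b cells by 1.08 ± 0.22 (adjusted p = 0.0177) and in DC2 cells by 1.25 ± 0.24 (adjusted p = 0.00594). Tab2, an adaptor of that kinase cascade, was higher in DC2 than in DC1a cells of TLI mice by 1.25 ± 0.33 (adjusted p = 0.0479), and Cd36, a lipid receptor that helps TLR2, was lower there by a log2 fold change of -2.64 ± 0.66 (adjusted p = 0.0335). These 4 genes were named after their values were seen. Between TLI and untreated mice edgeR called 0 of the 32 in any population. In DC1a, DC1b, DC2 and DC3 cells 2, 3, 3 and 5 of them had an unadjusted p under 0.05 by edgeR. Of the 19597 genes tested 1912, 2425, 1765 and 2044 had one. DESeq2 called 0, 2, 1 and 1 of the 32. The median log2 fold change of the list was 0.50, 0.37, -0.06 and -0.33 in these comparisons, and that of all genes tested 0.15, 0.09, 0.02 and -0.05.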

How the data were processed

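RNA of dendritic cells sorted into 4 populations from pools of untreated and TLI mice was amplified and sequenced by the authors, who trimmed reads with Trimmomatic, aligned them to GRCm38 with HISAT2 and counted with StringTie. The deposited values are estimated counts per gene, which are whole numbers with totals between 19256447 and 36997890 per library. The samples were grouped by treatment and population as labelled. Amplification can widen the spread of low counts, and CPM, counts scaled to a common library total, depend on the most abundant genes.

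All 23 libraries entered a fit with group and batch as terms (edgeR 4.0.16 in R 4.3.3, TMM scaling, filterByExpr, quasi-likelihood test, Benjamini-Hochberg adjustment over 19597 genes). Since untreated mice are in batch 1 alone, the batch term rests on TLI pools and TLI differences are read at the level of batch 1. Alternatives were DESeq2 1.42.0 size factors and Wald test, no filter, no batch term, batch 1 alone, each treatment alone, the pool as a block, each library left out and, chosen after seeing the data, the 3 DC1b and DC2 libraries under 10 CPM of Sirpa left out. For TLI against untreated mice the block was the pool number alone. Contrasts averaged over treatments or populations and the difference between batches were added after seeing the data as well. The script was tested on counts simulated for TLI against untreated DC2 cells. It called 15 of 100 genes changed 4-fold and 58 of 100 changed 16-fold, with 8 false among 81 calls. An absent call therefore does not mean an absent difference. The changed genes were drawn from the more abundant genes alone, so these rates do not cover genes as low as Tlr4, Tlr5 and Tlr6. The simulated libraries were drawn independently, without shared pools. The members and lists were chosen with earlier results of these data known. All 9 members are named, as are the 2 genes most correlated with each over log2 CPM, except those of Tlr4, which are not reported here. Genes of the pathway list were to be named when called in 3 or more comparisons, which none was. Libraries of one pool number may share mice. The residuals of 33 such pairs correlated at a median of -0.0423. For 33 pairs of other pools of the same treatment and batch the median was -0.0705. These medians run over all genes and do not exclude a pool shift of a single gene, as in Cd14. The main fit counted sorts of one pool number as separate libraries, also where populations were averaged. Gene positions come from GENCODE on GRCm38 and promoters from RefSeq on GRCm38.p6. Of 47729 identifiers 47224 had a symbol. The p-values of the main fit measure the spread between libraries of a group once batch is taken out, which may be partly technical. Where populations were averaged, they do not take the pool as the unit.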

Additional observations from a re-analysis of the deposited data

Results flagged for a closer look

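Of 27 groups of 4 libraries, one for each gene and TLI population with 4 pools, 4 held an outlying library. Its gap to the nearest neighbour, relative to the group's range, exceeded Dixon's critical value at 95%. For independent normal values chance does so in about 1 group in 20. These groups join pools of both batches, so that rate is not a measure for them. Tlr2 stood at 95 CPM in DC1b cells of TLI pool 2, above 31.9 to 39.8 CPM in the other pools. Cd180 stood at 58.1 CPM in DC1b cells of TLI pool 1, above 35.4 to 38.3 CPM in the others. Tlr5 stood at 0.135 CPM in DC1a cells of TLI pool 3 and at 0.0948 CPM in DC3 cells of TLI pool 1. These values rest on 5 and 2 counts, with 0 counts in the other pools of each group. Beside such zeros any count would have been flagged.

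The TLI difference of Cd180 differed between populations by edgeR's quasi-likelihood test of the interaction. It differed by -3.12 on the log2 scale between DC2 and DC1a cells and by 2.71 between DC3 and DC2 cells, with every TLI DC2 library (32.2 to 54.9 CPM) below both untreated ones (412 and 426 CPM).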

How the results depend on the processing

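The number of calls depended on the tool and on the batch term. Among the 9 genes, over the 6 pairs of populations in untreated mice, 6 calls became 13 with DESeq2's Wald test and 3 without the batch term, in batch 1 alone or with each treatment fitted alone. In TLI mice 7 became 18 with DESeq2, 2 without the batch term or with TLI mice alone, 0 in batch 1 alone and 4 without the libraries of low Sirpa. For TLI against untreated mice 2 became 7 with DESeq2, 1 without the batch term or without the libraries of low Sirpa, and 0 in batch 1 alone. For differences of the TLI effect between populations 2 became 5 with DESeq2, 1 without the batch term or without the libraries of low Sirpa, and 0 without the low-count filter or in batch 1 alone. For pairs averaged over treatments 11 became 20 with DESeq2 and 5 in batch 1 alone, and for batch 2 against batch 1 the 4 became 2 without the filter.

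Over all genes the same comparisons gave 894 calls in untreated pairs (7485 with DESeq2, 308 without the batch term), 1619 in TLI pairs (8833, 912, and 313 in batch 1 alone), and 100 for TLI against untreated mice (3633, 28 and 15, and 330 without the filter). They gave 47 for differences of the TLI effect (3463, 19 and 22, 129 without the filter and 21 without the libraries of low Sirpa), 3275 for averaged pairs (12006, 1715 and 1570), 478 for the mean TLI effect (2290, 128 and 242), and 3413 between batches (5926 with DESeq2).

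Leaving out each library in turn gave 3 to 7 calls among the members and 364 to 1077 among all genes in untreated pairs, 4 to 7 and 1081 to 1643 in TLI pairs, 1 to 3 and 21 to 145 for TLI against untreated mice, 1 to 3 and 19 to 106 for differences of the TLI effect, 7 to 12 and 1708 to 3461 for averaged pairs, 2 to 3 and 78 to 581 for the mean TLI effect, and 2 to 4 and 2702 to 3580 between batches.

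With the pool as a replicate block the members gave 5 calls in untreated pairs, 9 in TLI pairs, 2 for differences of the TLI effect and 10 for averaged pairs. All genes gave 792, 1317, 32 and 2873 there. For TLI against untreated mice the block was instead the pool number, which TLI and untreated pools of different mice share. With it the members gave 2 calls for TLI against untreated mice and 3 for the mean TLI effect, and all genes gave 103 and 450. Of the 35 calls of single members, 185 of 250 values under the other alternatives and 694 of 805 values with 1 library left out remained past the threshold, and 0 changed direction. The cause of these shifts was not tested. With 2 untreated pools for each population, and depths at which 3 counts are up to 0.156 CPM, differences of Tlr4 and Tlr5 in untreated mice are near the limit of detection.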
